A study of Mus musculus with 6 samples.

Results

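The DNA replication genes described here are 46 genes of the machinery that licenses origins, opens the double helix, copies both strands and supplies the nucleotides. They were picked by gene symbol, as named parts of that machinery, with earlier results of these data known. All 46 were found in the expression table of 18121 genes, and all 46 passed the level filter for testing (a mean of 1 FPKM or more over the 6 libraries), as 10912 genes in all did. FPKM counts fragments after division by transcript length in kilobases and by the mapped total in units of 1000000, so levels of different genes are on a common scale per length, while comparisons between libraries also depend on the scaling, as given below. The genes lie on 14 chromosomes and were grouped into 10 roles.

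The cells were mouse Lin-CD117+ hematopoietic stem cells (HSCs), marrow cells depleted of lineage-marked cells and then selected for the stem cell factor receptor CD117 (*Kit*). The study's methods describe female C57BL/6 mice aged 8 weeks as their source, with marrow taken from femur and tibia, and the labels state no genotype, sex or age. The question was what glycyrrhizic acid (GA), the triterpenoid saponin of licorice root, does to the transcripts of these cells. The Ctrl group held 3 libraries of cells in normal culture, and the GA group held 3 libraries of cells given GA for 24 hours. The labels name no genetic change or other agent that separates the groups. The sources used here do not give the GA concentration or culture medium of this experiment. Whether replicates were separate mice or separate cultures was not given either, so the p-values below measure only the spread between these samples.

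A eukaryotic origin is first bound by the origin recognition complex, which with CDC6 and CDT1 loads the ring-shaped MCM2-7 helicase onto DNA in G1 phase, while geminin blocks reloading later in the cycle. In S phase CDC45 and the GINS complex turn the loaded ring into an active helicase. Polymerase alpha-primase then lays down primers, polymerases delta and epsilon extend them with the sliding clamp PCNA, and FEN1 and DNA ligase I join the lagging-strand pieces. The transcripts of many of these genes peak around the G1-S transition under E2F factors, and in marrow they are known as marks of cycling progenitors, since the most primitive stem cells are mostly quiescent.

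*Kit* was detected in every library, at 19.57, 17.05 and 17.83 FPKM in Ctrl and 16.04, 20.35 and 21.20 FPKM in GA. The 13 stem and progenitor markers had summed levels between 638 and 652 FPKM in Ctrl and between 617 and 644 FPKM in GA, and the stem cell regulator *Mecom* stayed under the level needed for testing. Genes of other cell types were also present. The platelet genes *Pf4* and *Gp9* ranged together from 13853 to 14470 FPKM in Ctrl and from 12560 to 18583 FPKM in GA. One library was unlike the rest. GA replicate 1 lay at 14.97 on the first principal component against −5.82 to 0.25 for the others. Its FPKM summed to 555449 against 508672 to 525018. Its deviation from the Ctrl mean of each gene fell with transcript length (Spearman rho −0.59 across genes, which are not independent replicates). The same rho was −0.31 and −0.18 in GA replicates 2 and 3. It was −0.06 to 0.07 in the Ctrl libraries, which are themselves part of that mean. Results are therefore given with and without GA replicate 1, and with the length trend removed.

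Promoter sequences were available for 38 of the 46 genes (RefSeq, GRCm38.p6, 250 bases before to 50 bases after the start of transcription). They were searched on both strands for the 8-base E2F-type motif written as TTTCCCGC, TTTCGCGC, TTTGCCGC or TTTGGCGC. A match was present for 15 of the 38 genes (39.5%), against 4.99% of the 8913 tested genes with a promoter in the same table and 4.0% of 25 mitosis genes. Per promoter this was 32.6% of the 46 windows of these genes and 4.15% of the 11345 promoters of tested genes. Over all 32851 promoters in the table it was 2.26%. The second motif searched, CCAAT, was present for 60.5% of the 38 genes, 43.4% of the tested genes, 41.1% of all genes in the table and 80.0% of the mitosis genes. In 9 genes the E2F-type match lay before the start, and these windows are shown so that each match can be read beside the values of its gene. Each reads 5′ to 3′ on the gene's own strand, with the match and any overlapping match in capitals and up to 14 bases on each side.
*Mcm6*, nearer match, chr1:128359731-128359766, minus strand: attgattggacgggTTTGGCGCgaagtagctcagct
*Mcm6*, farther match, chr1:128359790-128359829, minus strand: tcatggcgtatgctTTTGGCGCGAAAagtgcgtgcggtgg
*Mcm5*, chr8:75109342-75109381, plus strand: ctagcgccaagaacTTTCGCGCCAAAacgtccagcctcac
*Mcm7*, chr5:138172027-138172062, minus strand: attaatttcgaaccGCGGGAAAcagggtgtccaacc
*Cdc6*, chr11:98907999-98908034, plus strand: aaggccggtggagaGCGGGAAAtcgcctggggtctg
*Orc1*, chr4:108579413-108579448, plus strand: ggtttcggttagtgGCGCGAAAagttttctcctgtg
*Orc3*, chr4:34614962-34614997, minus strand: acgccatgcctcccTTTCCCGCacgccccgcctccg
*Gins3*, chr8:95633504-95633539, plus strand: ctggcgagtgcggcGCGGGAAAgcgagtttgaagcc
*Pola1*, chrX:93632272-93632307, minus strand: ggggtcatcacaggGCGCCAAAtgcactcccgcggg
*Rfc3*, chr5:151651209-151651232, minus strand: gtgacgtcgcacgcTTTCGCGCtc

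In *Mcm6* and *Mcm5* pairs of matches on opposite strands overlapped and formed 1 longer run of capitals. The distance from the last matched base to the start ranged from 2 bases in *Rfc3* to 157 bases in *Mcm7*. *Mcm3*, *Lig1*, *Pold1*, *Pold3*, *Cdt1* and *Pole2* had their match at or after the start. The median log2 fold change, GA minus Ctrl on the log2(FPKM + 1) scale used throughout, was 0.09 (−0.04 to 0.17) over the 15 genes with a match and 0.11 (−0.06 to 0.25) over the 23 genes with a promoter and no match, among them *Pcna* and *Rfc4*. A match describes letters in this window only and is neither a binding site nor its absence.

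Of the 46 genes, 41 had a higher mean in GA and 5 a lower mean (*Fen1*, *Rfc1*, *Gins3*, *Orc4* and *Mcm10*). The median log2 fold change was 0.11, against 0.01 over all tested genes, of which 54.8% were higher in GA. The differences were small. Only *Rfc4*, *Pcna*, *Orc6* and *Prim2* exceeded 0.2, another 22 genes lay between 0.1 and 0.2, and 15 lay between 0 and 0.1.

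No replication gene passed limma's test at an adjusted p under 0.05, and neither did any of the 10912 genes (0%). The smallest adjusted p among the 46, from limma with Benjamini-Hochberg adjustment over all tested genes, was 0.152 for *Pcna*. At an unadjusted p under 0.05, 19 of the 46 genes (41.3%) were higher in GA and 0 were lower, against 8.88% and 4.63% of all tested genes. In 21 genes (45.7%) all 3 GA values lay above all 3 Ctrl values and in 0 below, against 11.6% and 8.29% of all tested genes. With the level filter at a mean of 5 FPKM, 43.2% of 44 replication genes and 10.6% of all tested genes were higher at that p. The shares higher without overlap were then 47.7% and 13.7%. The count of 19 was 26 without GA replicate 1, 12 without GA replicate 2, 12 without GA replicate 3, 13 without Ctrl replicate 1, 10 without Ctrl replicate 2 and 11 without Ctrl replicate 3. The share of all tested genes at that p was 15.0%, 6.73%, 9.50%, 5.75%, 5.78% and 5.68% in the same order, and the median of 0.11 became 0.07 without GA replicate 3. Because replication genes are commonly transcribed together, these counts are not counts of independent events. In bulk RNA a larger share of cycling cells and more of the transcript per cell cannot be told apart.

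**Figure D1:**
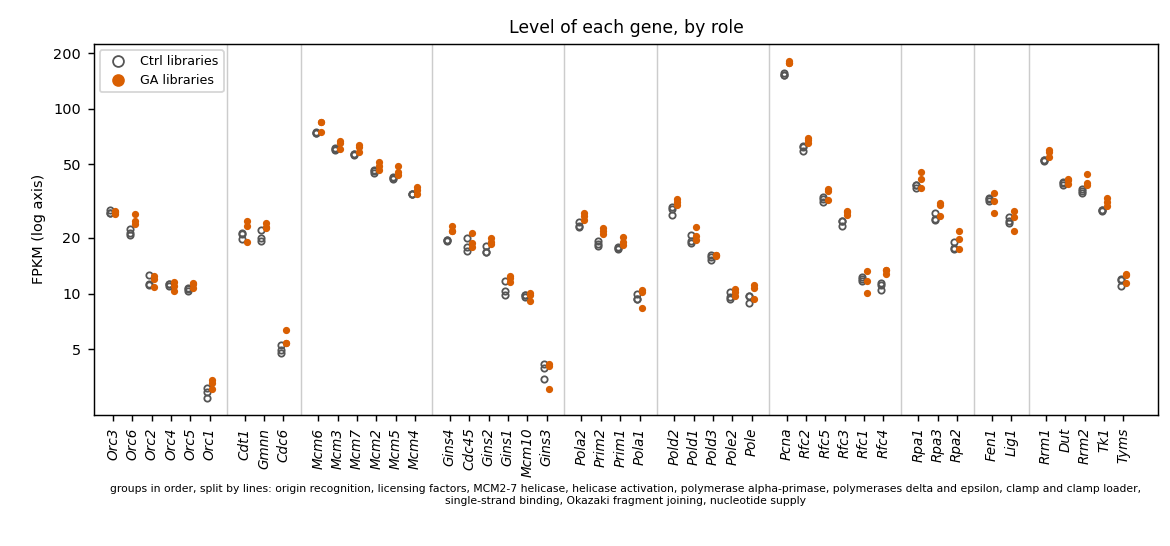
Level of each of the 46 replication genes (FPKM, log axis) in the 3 Ctrl libraries (open circles) and the 3 GA libraries (filled circles), with genes ordered by mean level within each role. *Pcna* stood highest, with Ctrl at 151 to 156 FPKM and GA at 176 to 182 FPKM, and *Orc1* lowest, at about 3 FPKM.

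Their levels spanned more than an order of magnitude. The mean over the 6 libraries ran from 3.08 FPKM for *Orc1* to 165.9 FPKM for *Pcna*, with a median of 21.7 FPKM, and 32 of the 46 lay above 12.7 FPKM, the median of the tested genes. The 6 MCM2-7 genes, whose products form 1 ring, stood between 34.6 and 74.4 FPKM in Ctrl, whereas the 6 origin recognition genes, also parts of 1 complex, ran from 2.92 FPKM (*Orc1*) to 27.5 FPKM (*Orc3*). Replicates lay close together. The median coefficient of variation of the 46 genes was 3.17% in Ctrl and 4.91% in GA, against 4.05% and 6.99% over the tested genes. The tested genes were not matched to the 46 for level.

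The origin recognition complex had the lowest median apart from Okazaki fragment joining in the deposited values, with 5 of 6 genes higher in GA and a median log2 fold change of 0.04. *Orc6*, the smallest and least tightly held subunit, was the exception. It measured 20.78, 22.37 and 21.26 FPKM in Ctrl and 26.88, 23.88 and 24.74 FPKM in GA, so that the lowest GA library stood above the highest Ctrl library. Its log2 fold change was 0.22 (SE 0.06), with an unadjusted p of 0.0036 and an adjusted p of 0.221 in limma. *Orc3*, the most abundant subunit, measured 27.16, 27.11 and 28.30 FPKM in Ctrl and 27.07, 28.12 and 27.75 FPKM in GA. The groups of *Orc3* overlapped, and its log2 fold change of 0.01 had a 95% interval from −0.10 to 0.11. *Orc1*, the ATPase subunit whose transcript is E2F-regulated, had a log2 fold change of 0.11 with overlapping groups (2.93, 2.72 and 3.10 FPKM in Ctrl, 3.05, 3.40 and 3.27 FPKM in GA). *Orc5*, *Orc2* and *Orc4* stood at 0.07, 0.01 and −0.03, and all 3 overlapped. With each library scaled to the same FPKM total the median of the group was −0.02, with 3 of 6 higher. Over all tested genes that median was −0.04, with 33.4% higher. The number of the 6 genes higher in GA ranged from 3 to 6 when 1 library was left out.

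All 3 licensing factors were higher in GA. Geminin (*Gmnn*), the inhibitor of CDT1, measured 21.97, 19.20 and 19.96 FPKM in Ctrl and 24.02, 22.70 and 22.96 FPKM in GA. Every GA value exceeded every Ctrl value, and the log2 fold change was 0.18 (SE 0.06, limma unadjusted p 0.012, adjusted p 0.250). The helicase loader *Cdc6* also did not overlap, at 4.93, 4.75 and 5.29 FPKM in Ctrl and 5.40, 5.41 and 6.32 FPKM in GA, with a log2 fold change of 0.16 (SE 0.08) that was 0.10 without GA replicate 3. *Cdt1*, the partner that geminin blocks, measured 21.36, 19.79 and 21.01 FPKM in Ctrl and 19.04, 23.28 and 24.60 FPKM in GA. GA replicate 1 was the lowest of its 6 libraries while GA replicates 2 and 3 were the highest, and its log2 fold change of 0.09 had an SE of 0.08. It was 0.20 without GA replicate 1 and 0.02 without GA replicate 3.

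The MCM2-7 genes encode the 6 subunits of the replicative helicase, and all 6 were higher in GA within a narrow band of 0.06 to 0.13 on the log2 scale. The sum of their FPKM was 314.3, 313.8 and 314.1 in Ctrl and 319.5, 342.4 and 352.5 in GA. The 3 Ctrl sums were nearly equal and all 3 GA sums lay above them, with GA replicate 1 the nearest. *Mcm6* measured 74.30, 73.97 and 74.89 FPKM in Ctrl and 75.23, 84.71 and 84.62 FPKM in GA, a log2 fold change of 0.13 (SE 0.05, limma unadjusted p 0.037, adjusted p 0.335). *Mcm7* measured 56.55, 56.08 and 57.06 FPKM in Ctrl and 58.50, 61.75 and 63.66 FPKM in GA, a log2 fold change of 0.11 (SE 0.05, limma unadjusted p 0.032, adjusted p 0.329). For both genes no GA value fell among the Ctrl values, and GA replicate 1 was the lowest of the GA values. *Mcm5* (0.11), *Mcm2* (0.10) and *Mcm4* (0.06) were likewise without overlap, and *Mcm3* (0.09) overlapped through GA replicate 1 at 60.87 FPKM, below the highest Ctrl value of 61.52 FPKM. All 6 genes were also higher in GA without GA replicate 3, where the median went from 0.10 to 0.07, and with each library scaled to the same total, where none of the 6 was without overlap.

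Among the genes that activate the loaded helicase, 4 of 6 were higher in GA. The GINS complex has 4 subunits that act together, and *Gins4*, *Gins1* and *Gins2* had log2 fold changes of 0.18, 0.17 and 0.14, whereas *Gins3* stood at −0.04. *Gins4* measured 19.55, 19.51 and 19.23 FPKM in Ctrl and 21.83, 23.06 and 21.73 FPKM in GA, with clear separation, an SE of 0.05, a limma unadjusted p of 0.0036 and an adjusted p of 0.221. *Gins3* measured 3.45, 3.98 and 4.16 FPKM in Ctrl and 3.05, 4.04 and 4.16 FPKM in GA, so the groups shared their highest value and the lowest was GA replicate 1. *Gins2* was also without overlap, at 16.83 to 18.12 FPKM in Ctrl and 18.57 to 20.04 FPKM in GA, and *Gins1* overlapped at a single value. *Cdc45*, the other helicase cofactor, had a log2 fold change of 0.07 (SE 0.08), and *Mcm10*, which acts as the origin fires, −0.01 (SE 0.06). The median of the 6 genes went from 0.11 to 0.06 without GA replicate 3.

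Polymerase alpha-primase, which makes the RNA-DNA primers, had 4 of 4 genes higher in GA and a median of 0.13. The large primase subunit *Prim2* measured 18.44, 18.17 and 19.27 FPKM in Ctrl and 22.60, 21.04 and 21.68 FPKM in GA. Its log2 fold change was 0.21 (SE 0.05, 95% interval 0.10 to 0.33), with an unadjusted p of 0.0020 and an adjusted p of 0.190 in limma. The regulatory subunit *Pola2*, the most abundant of the 4, measured 24.30, 22.97 and 23.27 FPKM in Ctrl and 26.25, 24.89 and 27.35 FPKM in GA, a log2 fold change of 0.15 (SE 0.05). Neither gene overlapped, nor did the catalytic primase *Prim1* (0.12). The catalytic polymerase subunit *Pola1* measured 9.35, 9.91 and 9.35 FPKM in Ctrl and 8.36, 10.23 and 10.51 FPKM in GA, with GA replicate 1 lowest of all and a log2 fold change of 0.02 (SE 0.08).

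The replicative polymerases delta and epsilon had 5 of 5 genes higher in GA and a median of 0.09. *Pold2*, an accessory subunit of polymerase delta, measured 28.81, 29.45 and 26.70 FPKM in Ctrl and 32.59, 31.32 and 29.98 FPKM in GA. It was the 1 gene of the 5 without overlap, with a log2 fold change of 0.14 (SE 0.05, limma unadjusted p 0.028, adjusted p 0.313). The catalytic subunits *Pole* and *Pold1* stood at 0.12 and 0.09 and the accessory subunits *Pole2* and *Pold3* at 0.06 and 0.03, each with overlapping groups. Without GA replicate 3 the median of the 5 genes was 0.04, with all 5 higher.

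The sliding clamp and its loader held the 2 largest differences of all 46 genes in the deposited values. *Pcna* (chr2:132249162-132253314 of GRCm38, minus strand) encodes the ring that tethers polymerases to DNA. It measured 151.18, 152.24 and 155.77 FPKM in Ctrl and 177.62, 176.40 and 182.06 FPKM in GA, or 153.1 ± 2.40 against 178.7 ± 2.98 FPKM (mean ± SD, n = 3 each). The gap between the groups was wider than the spread within either, and here GA replicate 1 lay between the other two GA libraries. The log2 fold change was 0.22 (SE 0.04, 95% interval 0.13 to 0.31), and its limma unadjusted p of 0.00032 gave an adjusted p of 0.152. *Rfc4*, a small subunit of the loader that opens the clamp, measured 10.39, 11.13 and 11.36 FPKM in Ctrl and 13.45, 12.76 and 13.38 FPKM in GA, a log2 fold change of 0.25 (SE 0.06, limma unadjusted p 0.0016, adjusted p 0.189). *Rfc3* and *Rfc2*, also loader subunits, did not overlap between the groups and stood at 0.17 and 0.13, and *Rfc5* overlapped at 0.10. The large subunit *Rfc1* was lower on average in GA, at 12.27, 12.03 and 11.75 FPKM in Ctrl and 10.01, 11.74 and 13.27 FPKM in GA, where the GA libraries lay on both sides of Ctrl and the log2 fold change was −0.05 (SE 0.09).

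The 3 subunits of replication protein A, which coats single-stranded DNA, had positive log2 fold changes of 0.11 (*Rpa1*), 0.11 (*Rpa2*) and 0.16 (*Rpa3*), and none was without overlap. *Rpa1*, the large DNA-binding subunit, measured 38.53, 37.23 and 38.77 FPKM in Ctrl and 37.35, 41.51 and 45.18 FPKM in GA, so GA replicate 1 lay within Ctrl. *Rpa3*, the smallest subunit, showed the opposite order, at 25.17, 24.93 and 27.41 FPKM in Ctrl and 30.87, 30.29 and 26.16 FPKM in GA, where GA replicate 3 lay within Ctrl (limma unadjusted p 0.040, adjusted p 0.346). *Rpa3* has the shortest transcripts of the 46 genes, 670 nucleotides, against about 4010 for *Rpa1*. *Rpa1*, *Rpa2* and *Rpa3* stood at 0.04, 0.04 and 0.24 without GA replicate 3, and at 0.18, 0.19 and 0.12 without GA replicate 1.

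The pair that joins Okazaki fragments was the group without a positive median. The flap nuclease *Fen1* measured 32.63, 32.83 and 31.67 FPKM in Ctrl and 27.29, 31.58 and 34.87 FPKM in GA. Its GA libraries stood below and above the whole Ctrl range, and the log2 fold change of −0.06 (SE 0.08) had a 95% interval from −0.23 to 0.12. *Lig1*, DNA ligase I, spread in the same way, at 25.95, 24.06 and 24.62 FPKM in Ctrl and 21.91, 25.79 and 28.06 FPKM in GA, with a log2 fold change of 0.01 (SE 0.08).

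All 5 genes of nucleotide supply were higher in GA, with a median of 0.13. Ribonucleotide reductase makes deoxynucleotides, and both of its subunits were without overlap. *Rrm2*, the cell cycle-regulated small subunit, measured 34.92, 35.95 and 36.64 FPKM in Ctrl and 38.88, 39.53 and 44.09 FPKM in GA, a log2 fold change of 0.18 (SE 0.06, limma unadjusted p 0.0089, adjusted p 0.249). *Rrm1*, the large subunit, measured 52.88, 52.50 and 52.16 FPKM in Ctrl and 54.75, 58.50 and 59.51 FPKM in GA, a log2 fold change of 0.13 (SE 0.05, limma unadjusted p 0.018, adjusted p 0.278). Thymidine kinase 1 (*Tk1*), the salvage enzyme of S phase, was also without overlap (28.04 to 28.37 FPKM in Ctrl, 29.74 to 32.72 FPKM in GA, 0.14), and thymidylate synthase (*Tyms*, 0.08) and dUTPase (*Dut*, 0.04) overlapped.

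**Figure D2:**
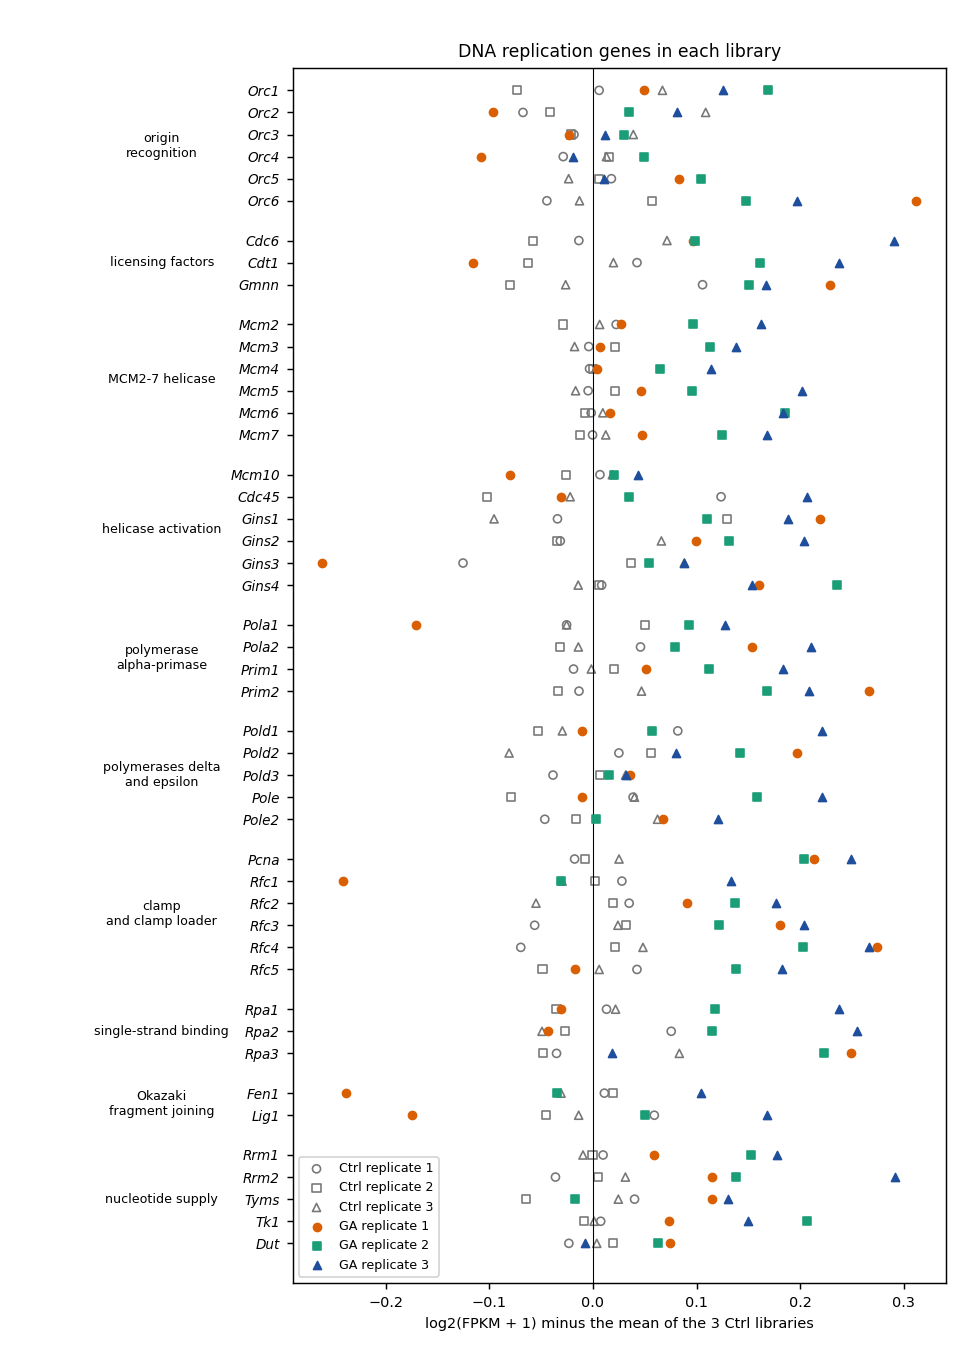
Log2(FPKM + 1) of the 46 replication genes in each of the 6 libraries minus the mean of the 3 Ctrl libraries, with genes ordered by role. Each library has its own marker, open for Ctrl and filled for GA, and the vertical line marks 0. GA replicates 2 and 3 lay above the Ctrl mean for 43 and 44 genes, and GA replicate 1 for 30. Of the 10912 tested genes, 6572 and 7024 lay above it in GA replicates 2 and 3, and 4397 in GA replicate 1.

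The 3 GA libraries did not contribute alike. GA replicate 1 exceeded the highest Ctrl value for 28 of the 46 genes (60.9%), GA replicate 2 for 34 (73.9%) and GA replicate 3 for 38 (82.6%), against 27.5%, 38.4% and 45.4% of all tested genes. In the other direction, 10 genes in GA replicate 1 and 2 genes in GA replicate 2 lay below the lowest Ctrl value, and 0 in GA replicate 3. The matching shares of all tested genes were not counted, so these counts cannot be set apart from the shift of each whole library. GA replicate 1 lay above the Ctrl mean for 4397 of the 10912 tested genes, against 6572 and 7024 in GA replicates 2 and 3. The median difference of the 46 genes from the Ctrl mean was 0.05, 0.11 and 0.17 in GA replicates 1 to 3 and −0.01 to 0.01 in the Ctrl libraries. Over all tested genes the same medians were −0.04, 0.03 and 0.04 in GA.

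**Figure D3:**
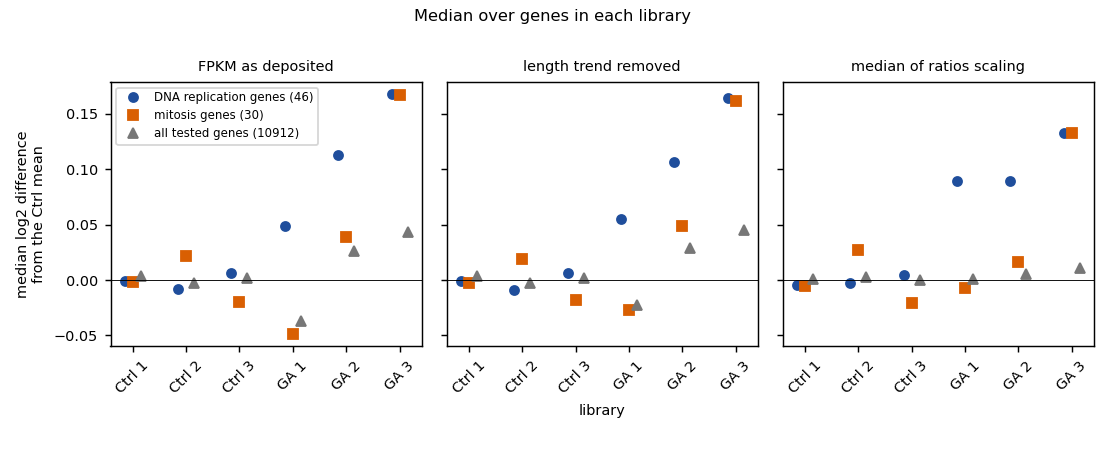
Median log2 difference from the Ctrl mean in each library, for the 46 replication genes (circles), 30 mitosis genes (squares) and all 10912 tested genes (triangles), with FPKM as deposited, with the length trend removed, and after median of ratios scaling. In all 3 panels the replication genes lay above all tested genes in each GA library, whereas the mitosis genes of GA replicate 1 lay below 0.

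Under the alternative scaling by the median of ratios to a reference library, the medians of the 46 genes were 0.09, 0.09 and 0.13 in GA replicates 1 to 3, against 0.00, 0.01 and 0.01 over all tested genes. When every library was instead scaled to the same FPKM total, the median of all tested genes shifted to −0.04 and that of the replication genes to 0.06. Relative to all tested genes this was 0.10, as it was with the deposited values. On that scale 35 of the 46 genes were higher in GA, 8 were without overlap and 4 had an unadjusted p under 0.05, against 33.4% of tested genes higher, 4.44% without overlap and 2.70% at that p. *Orc2*, *Orc3*, *Pola1*, *Pold3*, *Lig1* and *Dut* turned to lower in GA on that scale.

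Transcript length moved with the order of the GA libraries. The 9 genes that were highest of the GA libraries in GA replicate 1 had a median transcript length of 1287 nucleotides, and the other 37 a median of 2962. The 30 replication genes that were lowest there had a median of 3098.5 nucleotides, and the share of all tested genes lowest there was not counted. After a smooth length trend was removed from each library, 41 genes were again higher in GA, the median log2 fold change was 0.09, 18 genes were higher at an unadjusted p under 0.05 and 22 were without overlap. Of all tested genes, 58.7% were then higher, 5.71% were higher at that p and 9.61% were higher without overlap. The largest values were then those of *Pole* (0.20), *Prim2* (0.19), *Cdc6* (0.19) and *Rfc2* (0.19). *Pcna* stood at 0.18, *Rfc4* at 0.18, *Mcm6* at 0.16 and *Gmnn* at 0.09, where the deposited values gave 0.18. *Mcm10* and *Rfc1* turned to positive values of 0.033 and 0.0012, and *Orc3* and *Dut* to −0.0041 and −0.0054. The part of RNA integrity or of fragment length in these trends was not tested.

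**Figure D4:**
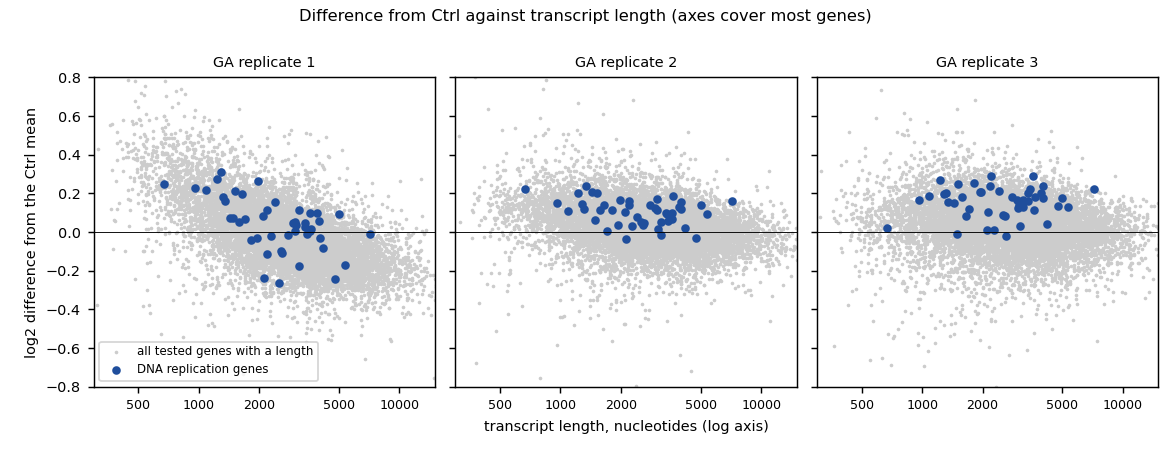
Log2 difference from the Ctrl mean against transcript length (nucleotides, log axis) in the 3 GA libraries, for the replication genes (filled) over all tested genes with a known length (grey). In GA replicate 1 differences fell with length, whereas GA replicates 2 and 3 had a flatter course (Spearman rho −0.59, −0.31 and −0.18 across genes).

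Without GA replicate 1, all 46 genes were higher in GA than in Ctrl, against 64.8% of tested genes, and the median log2 fold change was 0.15. Unadjusted p values under 0.05 were obtained for 26 genes (56.5%), against 15.0% of tested genes. At an adjusted p under 0.05, limma then called 2 replication genes higher in GA, where 54 of all tested genes (0.495%) were called higher and 60 lower. *Pcna* had an adjusted p of 0.029 in limma at a log2 fold change of 0.23, and *Mcm6* an adjusted p of 0.046 at 0.18. Over the 18 alternatives the adjusted p of *Pcna* ranged from 0.029 to 0.529 and that of *Mcm6* from 0.046 to 0.770, both from limma. With the length trend removed as well, the calls in the group went to 0 and 45 of the 46 genes were higher in GA. With median of ratios scaling in place of it, a setting chosen after seeing the data, *Pcna* alone was called, with a limma adjusted p of 0.037.

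Genes of the same process outside the 46 had smaller median differences, and the number higher in GA depended on the scaling. Of 33 other replication genes, 26 were higher in GA (median log2 fold change 0.04), and 7 (21.2%) were higher at an unadjusted p under 0.05 and 0 lower. The fork protection factor *Tipin* measured 26.47, 31.20 and 30.66 FPKM in Ctrl and 36.07, 35.74 and 37.04 FPKM in GA, well apart, with a log2 fold change of 0.30 (SE 0.06, limma unadjusted p 0.00097, adjusted p 0.174). *Rnaseh2b*, a subunit of the enzyme that removes ribonucleotides from DNA, and *Pold4*, the smallest polymerase delta subunit, stood at 0.22 and 0.20. Of 27 other nucleotide supply genes, 23 were higher with a median of 0.06, led by the nucleotide pyrophosphatase *Dctpp1* (0.21), the nucleoside diphosphate kinase *Nme2* (0.15) and CTP synthase *Ctps* (0.17), and 6 were higher at an unadjusted p under 0.05. With each library scaled to the same total, 16 of the 33 were higher (median −0.01) and 14 of the 27 (median 0.01). Only 33.4% of all tested genes were higher on that scale. Relative to the median of all tested genes the 2 lists stood at 0.03 and 0.05, against 0.03 and 0.04 with the deposited values. Without GA replicate 3 the counts were 18 and 19, with medians of 0.01 and 0.03. Without GA replicate 1 they were 32 and 24, with medians of 0.10 and 0.10. Of all tested genes 47.8% and 64.8% were higher under these 2 settings, with medians of −0.01 and 0.04. With the length trend removed 29 of the 33 and 24 of the 27 were higher, with medians of 0.07 and 0.08. The median of the 46 genes was then 0.09, and 58.7% of all tested genes were higher. At a limma unadjusted p under 0.05, 4 of the 33 and 5 of the 27 were then higher, against 18 of the 46.

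Regulators of the G1-S transition were mixed. Of 29 genes, 19 were higher in GA with a median of 0.04, and at an unadjusted p under 0.05 there were 3 higher and 2 lower. *Cks1b*, a partner of cyclin-dependent kinases, stood at 0.21 and the G1 kinase *Cdk4* at 0.20. The retinoblastoma gene *Rb1*, which restrains E2F factors, measured 44.29, 45.68 and 46.19 FPKM in Ctrl and 41.12, 41.90 and 39.69 FPKM in GA, all below Ctrl, at −0.15 (limma unadjusted p 0.0080, adjusted p 0.244). *E2f1* had a log2 fold change of 0.09 (SE 0.05) and cyclin E1 (*Ccne1*) of 0.11 (SE 0.08). The median of the 29 genes was −0.02 with each library scaled to the same total, where that of all tested genes was −0.04. The median of the 29 was 0.08 without GA replicate 1 and 0.00 without GA replicate 3, where that of all tested genes was 0.04 and −0.01. With the length trend removed 21 of the 29 were higher, at a median of 0.05. At a limma unadjusted p under 0.05, 2 were then higher and 0 of the 29, *Rb1* included, were lower.

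The mitosis genes offered a comparison with a later step of the same cycle. Of 30, 23 were higher in GA (median log2 fold change 0.05), and 6 had an unadjusted p under 0.05, with *Ube2c* (0.21), *Cenpa* (0.18) and *Birc5* (0.15) the 3 at the smallest p. The direction of this list turned without GA replicate 3 and with each library scaled to the same total. Each setting left 14 of 30 higher and a median of −0.01. Of all tested genes 47.8% and 33.4% were higher under these settings. Relative to the median of all tested genes the mitosis median was −0.003 and 0.03, against 0.03 with the deposited values. Without GA replicate 1 all 30 were higher at a median of 0.10, against 64.8% of all tested genes at a median of 0.04. With the length trend removed 28 of 30 (93.3%) were higher at a median of 0.07, against 89.1% of the replication genes at 0.09. The proliferation marker *Mki67* measured 57.13, 56.40 and 54.78 FPKM in Ctrl and 48.77, 54.92 and 58.23 FPKM in GA, without separation. By library the mitosis median was −0.05, 0.04 and 0.17 in GA replicates 1 to 3, beside 0.05, 0.11 and 0.17 for the replication genes. The 2 lists were thus level in GA replicate 3 and apart in GA replicates 1 and 2, and the difference between them was not tested.

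Some markers of other cells were higher in GA as well. Of the 11 tested mature lineage markers 8 were higher in GA, with a median of 0.08. With the length trend removed 6 were higher and 5 lower, the median was 0.01 and none was higher without overlap, and without GA replicate 1 there were again 6 higher, at a median of 0.13. The basophil and mast cell protease *Mcpt8* measured 38.3 to 38.9 FPKM in Ctrl and 42.5 to 47.8 FPKM in GA (log2 fold change 0.23), neutrophil elastase *Elane* 54.3 to 67.4 and 68.9 to 76.0 FPKM (0.27), and the monocyte marker *Ly6c2* 157.3 to 195.2 and 196.5 to 214.1 FPKM (0.20). The summed level of the 6 granulocyte and monocyte markers was 446 to 547 FPKM in Ctrl and 538 to 573 FPKM in GA. The globin *Hbb-bt* of red cells measured 724.9 to 778.7 FPKM in Ctrl and 667.3 to 984.2 FPKM in GA, and the endothelial *Pecam1* measured 90.3 to 95.9 and 77.6 to 94.1 FPKM. The stromal *Col1a1* stayed at or under 0.21 FPKM throughout. Among the stem markers 6 of 12 tested were higher, *Tal1* stood at −0.11, *Procr* at 0.23 and *Cd34* at 0.07. The part of the cell composition in the replication gene differences was not tested.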

How the data were processed

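Total RNA of 3 Ctrl and 3 GA libraries was sequenced on a BGISEQ-500, and the authors calculated gene levels with RSEM. Tools named in the submitters' processing notes are HISAT2 2.0.4 and Bowtie2 2.2.5, with mm10. The deposited values are FPKM with 2 decimals, so the depth is unknown and no counting interval is given. The sources used here give no annotation or strand setting, so reads shared with pseudogene copies (*Pcna* and *Tyms* have such copies) or antisense genes could not be told apart. FPKM divides by length and total, so a library rich in short transcripts shifts all genes.

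The main test was limma 3.58.1 (R 4.3.3, mean-variance trend, two-sided) on log2(FPKM + 1), limited to genes whose mean reached 1 FPKM, with Benjamini-Hochberg adjustment over all of them. This scale understates the change of low genes. An exact permutation test of 3 against 3 cannot go below 0.1. The test was tried on simulated data with the Ctrl spread in both groups and no length trend. At an adjusted p under 0.05 limma recovered 89% of 100 genes changed by 0.5 on the log2 scale. It recovered 98% of 100 genes changed by 1, with 12 false calls among 10912 genes. Smaller changes were not simulated, and those of the 46 genes were all smaller, so the simulation does not show whether such changes would be called. Groups came from the sample titles. The 46 genes and the other lists were chosen with earlier results of these data known. Values in every sample are given, in each role, for the gene with the highest mean and the gene with the smallest p. From the other lists up to 3 genes with the smallest p were named, plus *Kit*, *Mki67*, *E2f1* and *Ccne1*. Of these only *Kit*, *Mki67*, *Tipin* and *Rb1* have values in every sample, and the rest have fold changes or ranges. Further per-sample values (*Orc1*, *Cdc6*, *Cdt1*, *Gins3*, *Pola1*, *Rfc4*, *Rfc1*, *Lig1*) were chosen after they were seen. Lengths (98.2% of tested genes) and positions came from GENCODE on GRCm38, and the length trend was removed by loess (span 0.5). The alternatives varied the pseudocount (0.1 or 0.5), the level filter (none, or a mean of 5 FPKM), the scaling and the length trend, and used no mean-variance trend, a replicate block and leaving out each library. The replicate numbers did not pair the samples. *Cd3e* was not analysed here. The results of a few marker genes are not reported here.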

Additional observations from a re-analysis of the deposited data

How the results depend on the processing

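Over 18 alternatives 35 of the 46 genes kept their direction. Members higher in GA at an unadjusted p under 0.05 numbered 19, and 4 when each library was scaled to 1000000, where 8 were without overlap, the median was 0.055 and 3 of all genes were called lower. Leaving out 1 library gave 10 to 26 such members, 0 to 2 called, 0 to 2 without overlap and lower, and 0 to 54 genes called higher and 0 to 60 lower in all. The highest of these counts, apart from the 2 without overlap and lower, came without GA replicate 1, and the smallest median, 0.073, and those 2 without GA replicate 3. Removing the length trend gave 2 lower calls in all genes. Without GA replicate 1 it gave 8 higher and 24 lower calls and no call among the 46, and median of ratios scaling gave 23 and 80, with 1 (*Pcna*, 0.20).

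Leaving out 1 library moved the log2 fold change of *Orc2* between −0.031 and 0.061, *Orc3* between −0.0056 and 0.026, *Orc4* between −0.064 and 0.015, *Mcm10* between −0.030 and 0.032, *Gins3* between −0.103 and 0.071, *Pola1* between −0.039 and 0.110, *Rfc1* between −0.136 and 0.051, *Fen1* between −0.137 and 0.035 and *Lig1* between −0.062 and 0.109. Scaled to 1000000, *Orc2* stood at −0.049, *Orc3* at −0.051, *Pola1* at −0.039, *Pold3* at −0.029, *Lig1* at −0.043 and *Dut* at −0.015. With the length trend removed, with or without the block, *Orc3* stood at −0.0041, *Mcm10* at 0.033, *Rfc1* at 0.0012 and *Dut* at −0.0054. Without GA replicate 1 and the length trend, *Orc4* stood at 0.012, *Mcm10* at 0.052, *Gins3* at 0.066, *Rfc1* at 0.078, *Fen1* at 0.023 and *Dut* at −0.0014. Without GA replicate 1 and with median of ratios scaling, *Orc3* stood at −0.0080, *Mcm10* at 0.0048, *Gins3* at 0.047, *Pold3* at −0.0047, *Rfc1* at 0.023, *Fen1* at 0.0056 and *Dut* at −0.0019. The cause was not tested.

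With a replicate block 15 of the 46 genes were higher at an unadjusted p under 0.05 (7.29% of all tested genes), 16 with the length trend removed too (4.46%), and 0 were called. Deviations of samples with the same number correlated at −0.17, −0.13 and 0.00, and not every sample correlated best with its own number.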
